A study of Mus musculus with 10 samples.

Results

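The colony-stimulating factor receptors let blood progenitors sense the cytokines that drive monocyte, dendritic cell and granulocyte formation. Open chromatin around the 5 mouse genes that encode them, Csf1r, Csf2ra, Csf2rb, Csf2rb2 and Csf3r, was compared across 10 ATAC-seq libraries. ATAC-seq uses a transposase that cuts and tags accessible DNA, so a peak marks a stretch of open chromatin. Peaks of all libraries on chromosomes 1 to 19 and X were joined when 1 bp or more was shared, leaving 114366 merged regions. A region belonged to a receptor gene when its centre lay inside the gene or within 50 kb of it, whichever gene was nearest. This rule took 57 of the 114366 regions. Detection in a library means an overlapping peak in its list. Just inside the 50 kb limit lay, for example, the lowest Csf1r region, 49.0 kb from the gene and detected in 7 libraries, and just outside it the next one, at 50.9 kb and detected in 9. Over the 2 sides of all 5 genes, the outermost regions taken lay 17.4 to 49.8 kb away and were detected in 1 to 10 libraries, and the first ones not taken lay 50.4 to 79.8 kb away, also in 1 to 10.

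CSF1R (CD115) is the receptor tyrosine kinase for CSF1 and is a defining surface protein of the monocyte and macrophage lineage. The receptor for granulocyte-macrophage colony-stimulating factor pairs a ligand-binding alpha chain, CSF2RA, with the common beta chain, CSF2RB, which carries the signal through the kinase JAK2 to the transcription factor STAT5. The common beta chain also serves the receptors for interleukin-3 and interleukin-5, and mice carry a neighbouring, closely similar gene, Csf2rb2, whose product serves interleukin-3 alone. CSF3R binds granulocyte colony-stimulating factor and drives neutrophil production.

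All cells were lineage-negative (Lin-) progenitors from C57BL/6 bone marrow, in 5 groups of 2 libraries. Wild-type long-term stem cells (LT-HSC) were CD117+ Sca-1+ CD135- CD48- CD150+, and wild-type lymphoid-primed multipotent progenitors (LMPP) were CD117+ Sca-1+ CD135+. Wild-type monocyte-dendritic cell progenitors (MDP) and IRF8-deficient MDP (IRF8KO MDP) were sorted alike, as Sca-1- CD117+ IL-7R- CD115+ cells. Wild-type common dendritic cell progenitors (CDP) were Sca-1- IL-7R- CD115+ CD135+ with intermediate CD117. For LMPP, the labels' cell type entry names short-term stem cells instead, and the titles were followed. The labels give neither the animals' age, the Irf8 allele, nor which animals a library came from. CD115 is the product of Csf1r, so WT MDP, CDP and IRF8KO MDP were chosen for the protein of one of these genes, and a difference at Csf1r between them and the other groups is not independent of the sort.

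Total tags ranged from 4790046 to 10166833 per library, with the highest totals in the CDP libraries (10166833 and 7985428), and the lists held 31325 to 69598 peaks. LT-HSC replicate 1 stood apart with the shortest list and 19.32% of its tags within peaks, against 38.06% to 53.74% in the other libraries. Since the lists hold positions alone, what follows compares detection. An undetected region may be closed or may lie under the detection limit of that library, and in sorted populations a smaller fraction of cells with an open region cannot be told apart from lower accessibility in each cell. A marker gene was called open when a region lay over it or within 1 kb of its ends. By this measure Csf1r was open in all 10 libraries, and Ly6a, which encodes Sca-1, and the neutrophil gene Ly6g were open in none. Cd209a, a dendritic cell lectin gene, was open in the 4 WT MDP and CDP libraries and in no other. Siglech, a plasmacytoid dendritic cell gene, was open in the 8 libraries other than LT-HSC. The rest of the 5 dendritic cell markers, Zbtb46, Batf3 and Bst2, were open in all 10 libraries.

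RefSeq (GRCm38.p6, the assembly of mm10) gave a promoter for 3 of the 5 genes. They are shown because the 250 bases before the start site lay wholly inside a merged region at each of the 3 genes. Capitals mark every match to GAGGAA, the core of the binding motif of the myeloid factor PU.1, on either strand. Csf2ra lies at chr19:61228419-61228668 on the minus strand, Csf2rb2 at chr15:78305722-78305971 on the minus strand and Csf3r at chr4:126024409-126024658 on the plus strand.
Csf2ra: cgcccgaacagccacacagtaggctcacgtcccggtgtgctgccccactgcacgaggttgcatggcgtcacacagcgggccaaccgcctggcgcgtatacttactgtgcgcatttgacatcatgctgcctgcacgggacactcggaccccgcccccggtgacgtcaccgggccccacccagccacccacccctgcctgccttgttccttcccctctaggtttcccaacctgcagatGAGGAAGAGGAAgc
Csf2rb2: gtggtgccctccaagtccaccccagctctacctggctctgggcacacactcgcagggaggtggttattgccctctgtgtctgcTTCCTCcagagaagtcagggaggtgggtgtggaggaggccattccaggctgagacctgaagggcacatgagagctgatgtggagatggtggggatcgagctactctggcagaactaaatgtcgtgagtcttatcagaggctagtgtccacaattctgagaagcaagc
Csf3r: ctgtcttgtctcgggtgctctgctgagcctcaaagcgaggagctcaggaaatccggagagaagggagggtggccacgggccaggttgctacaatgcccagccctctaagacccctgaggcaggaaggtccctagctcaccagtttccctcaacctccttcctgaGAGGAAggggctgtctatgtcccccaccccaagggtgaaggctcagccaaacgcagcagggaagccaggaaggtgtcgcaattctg
GAGGAA was found 2 times in the Csf2ra promoter, in adjoining copies, and 1 time in each of the promoters of Csf2rb2 (on the other strand) and Csf3r. It was present in 23.4% of the same 250-base stretch of all 32619 promoters in the table. The longer PU.1 motif GAGGAAGT, the C/EBP motif TTGCNNAA, the IRF motif (GAAA, any 2 bases, GAAA), the ETS-IRF composite (GGAA, any 2 bases, GAAA), the RUNX motif TGTGGT, the GATA motif AGATAA, the AP-1 motif TGANTCA and the TATA box TATAAA had no match on either strand in these 3 stretches. They were present in 2.46%, 9.62%, 2.99%, 2.32%, 13.9%, 10.0%, 6.78% and 12.4% of all promoters, in that order. GAGGAAGT contains GAGGAA, and TGANTCA reads the same on both strands. Only the forms spelled out here were searched, and other forms of the same motifs, such as TGATAA for GATA, were not. The GC content of the 3 stretches was 64.8% at Csf2ra, 56.4% at Csf2rb2 and 60.0% at Csf3r, against a median of 52.4% over all promoters. The regions over the Csf2ra and Csf3r promoters were detected in 10 of 10 libraries, and the one over the Csf2rb2 promoter in 7, both LT-HSC libraries and IRF8KO MDP replicate 1 being the ones without it. These are detections of the merged region, and whether the peak of each library covered the promoter itself was not checked.

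From LMPP to MDP, open regions were gained at Csf3r (5), Csf2rb (3), Csf2rb2 (2) and Csf2ra (1), counting shared regions at both beta chain genes, while Csf1r gained 0 and lost 2. The shares of the 57 regions gained from LT-HSC to LMPP, from MDP to CDP and between WT and IRF8KO MDP lay near those of all regions and say nothing particular of these genes. Between 2 groups, gained means detected in both libraries of the later-named group and absent from the lists of the other, lost means the reverse, and tested means seen in at least 1 of the 4 libraries. From LT-HSC to LMPP, 6 of 31 regions (19.4%) were gained against 18.5% of all regions tested, and 0 were lost against 2.37%. From LMPP to MDP, 10 of 47 (21.3%) were gained against 12.9%, and 5 (10.6%) were lost against 13.4%. From MDP to CDP, 5 of 49 (10.2%) were gained against 8.80%, and 0 were lost against 4.94%. Between WT and IRF8KO MDP, 2 of 46 (4.35%) were gained against 3.96%, and 3 (6.52%) were lost against 13.3%. The share gained from LMPP to MDP was the one farthest above its background, and 5 of the 10 regions were at Csf3r. Of the 10, 5 lay nearest to a receptor gene and the other 5 nearest to a neighbouring gene.

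These counts moved with list length. With the 4 lists of a comparison cut to the length of the shortest among them, 1 of 20 regions was gained and 1 lost from LT-HSC to LMPP, against 11.3% and 9.12% of all regions, so that the excess of gains ended. From MDP to CDP, 3 of 48 were then gained and 1 lost, against 7.52% and 6.27%. Between WT and IRF8KO MDP, 5 of 43 were then gained and 3 lost, against 7.41% and 9.62%, which turned the net from losses to gains. From LMPP to MDP the counts stayed at 10 and 5 of 47, against 13.2% and 13.3%, but with every list cut to the shortest of the 10 they were 5 and 1 of 24, against 14.9% and 15.6%.

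Without LT-HSC replicate 2, 11 of 29 regions were gained from LT-HSC to LMPP (37.2% of all regions), and without LT-HSC replicate 1, 6 of 31 were gained and 2 lost (19.1% and 9.92%). Without either WT MDP library, 4 of 44 regions were gained and 5 lost in IRF8KO MDP (5.76% to 6.74% and 20.3% to 21.2% of all regions). Without IRF8KO MDP replicate 1 it was 3 and 5 of 44 (8.88% and 16.3% of all regions), and without replicate 2 it was 4 and 4 of 45 (6.97% and 18.5%). From MDP to CDP, 2 regions were lost without WT MDP replicate 1, without WT MDP replicate 2 or without CDP replicate 1, of 47, 47 and 48 (9.91%, 8.72% and 8.03% of all regions). Without CDP replicate 2, 1 of 47 was lost (6.55%). In the comparison of WT MDP with CDP, the markers of other cells differed too, in both directions. Of 4 T and NK cell markers, 1 was open in each WT MDP library (Cd4) and 3 in each CDP library (Cd3e, Cd4 and Cd8a). Their summed regions were 2 in both WT MDP libraries and 4 to 5 in CDP, with Ncr1 at 0 in all. All 4 B cell markers were open in each WT MDP library and 3 in each CDP library. Of 3 mast and basophil markers, 1 was open in each WT MDP library and 0 in CDP. All 3 endothelial and stromal markers (Cdh5, Pecam1 and Col1a1) were open in these 4 libraries, with 11 and 10 summed regions in WT MDP and 16 and 13 in CDP. By gene, WT MDP and CDP had 4 and 4 against 8 and 7 at Cdh5, and 5 and 4 against 6 and 5 at Pecam1. At Col1a1 it was 2 and 2 against 2 and 1. The part of these cells and of the greater depth of CDP in the gained regions was not tested.

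**Figure D1:**
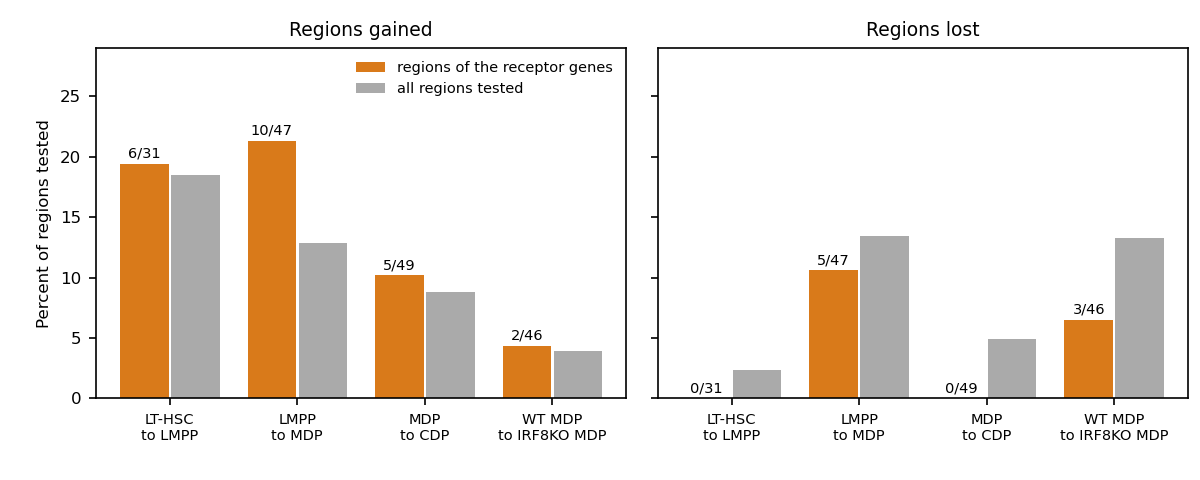
Percent of tested regions gained (left) and lost (right) in each comparison, for the regions of the receptor genes (orange, with the number called over the number tested above each bar) and for all regions tested (grey). The bars differ most for gains from LMPP to MDP, 21.3% against 12.9%, and for losses between WT and IRF8KO MDP, 6.52% against 13.3%.

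Every region was placed in 1 detection pattern. Of the 57 regions, 12 were detected in all 10 libraries (21.1%, against 17.0% of all regions), 2 in all 6 libraries of CD115+ cells and no other (3.51% against 2.19%), and 3 in WT MDP and CDP alone (5.26% against 3.89%). Detection in both CDP libraries alone was found for 4 (7.02% against 4.62%), in both IRF8KO MDP libraries alone for 2 (3.51% against 1.76%) and in both LMPP libraries alone for 2 (3.51% against 3.78%). A further 1 was detected in LMPP and CDP alone, 1 in LT-HSC and LMPP alone (1.75% against 2.01%), 4 in a single library (7.02% against 19.1%) and 26 in other combinations. Each of these shares rests on 1 to 12 regions, apart from the last.

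The number of regions detected per library was tested at each gene in exact two-sided permutation tests. In 7 of 20 tests the 2 groups did not overlap, and each gave the smallest p that 2 against 2 libraries allow, 0.333 (0.952 after Benjamini-Hochberg adjustment over the 20 tests), so no call could pass. Csf2rb and Csf2rb2, with 13 regions each, shared 9 of them, so their tests are not independent. In the counts of genes below, they are largely the same locus counted 2 times. Both LMPP libraries exceeded both LT-HSC libraries at 3 of 5 genes, Csf1r, Csf2rb and Csf2rb2, which 41.1% of protein-coding genes with a region also did, and were below both at 0 (1.68% of genes). Both WT MDP libraries exceeded both LMPP libraries at 3 of 5, Csf2rb, Csf2rb2 and Csf3r (33.0% of genes), and were below both at 0 (20.2%). Both CDP libraries exceeded both WT MDP libraries at 1, Csf1r (27.8% of genes), and were below both at 0 (9.72%). None of the 5 genes had fewer regions in both IRF8KO MDP libraries than in either WT MDP library, as 35.1% of genes did, and none had more, as 5.29% did.

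Csf1r (gene 12978, chr18:61105572-61131139) had 17 regions within 50 kb, of which 8 lay nearest to it, 5 nearest to Pdgfrb, which encodes a receptor of platelet-derived growth factor, and 4 nearest to Hmgxb3. Positions of regions are given in kb from the lower-coordinate end of the gene. LT-HSC replicates detected 3 and 7 of the 17 regions, LMPP 9 and 9, WT MDP 9 and 11, IRF8KO MDP 10 and 10, and CDP 13 and 13. The groups did not overlap between LT-HSC and LMPP or between WT MDP and CDP, and they overlapped between LMPP and WT MDP and between WT and IRF8KO MDP.

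The most constant region inside Csf1r lay at 2.8 kb (chr18:61107255-61109401) and was detected in all 10 libraries. An intronic enhancer of this gene, known as FIRE, has been described downstream of its promoter, and whether this region holds it was not tested. Peak width at a region, here and below, is the summed length of all called peaks of a library within it. At 2.8 kb it was 789 and 1399 bp in LT-HSC, 1789 and 1311 bp in LMPP, 1690 and 1956 bp in WT MDP, 2089 and 1923 bp in CDP, and 1599 and 1243 bp in IRF8KO MDP. LT-HSC replicate 1 had the narrowest peak, both WT MDP peaks were wider than both IRF8KO MDP peaks, and the CDP peaks overlapped those of WT MDP.

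The region over the lower-coordinate end of Csf1r (0.3 kb, chr18:61105435-61106385) was detected in neither LT-HSC library and in all 8 others, so it counted as gained from LT-HSC to LMPP. Deeper in the gene, the region at 14.6 kb (chr18:61118716-61121707) was missed in LT-HSC replicate 1 alone. Its peak was 501 bp wide, the width of a single unmerged peak call, in LT-HSC replicate 2, 1559 and 1822 bp in LMPP, 1562 and 1153 bp in WT MDP, 2843 and 2240 bp in CDP, and 1067 and 862 bp in IRF8KO MDP. CDP had the widest peaks at this site and IRF8KO MDP the narrowest outside LT-HSC, with no overlap between IRF8KO MDP and any of the 3 later wild-type groups. The CDP libraries were also the deepest, and the part of depth in this and the other peak widths was not tested. Over whole lists, the median peak width was 684 and 659 bp in CDP, 634 and 629 bp in WT MDP, and 629 and 632 bp in IRF8KO MDP. The share of all regions with peak widths that did not overlap between groups was not counted, for this or any other region.

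Regions detected in CDP alone, in both replicates, lay at 20.7 and 22.2 kb (chr18:61125848-61126698 and chr18:61127415-61128222), inside the gene. A pair outside the gene, at -9.8 and -6.4 kb, was detected in both CDP libraries and in WT MDP replicate 2, and not in WT MDP replicate 1. One more region inside the gene, at 7.7 kb, was detected in CDP replicate 2 alone. The CDP libraries thus held 6 and 7 regions over the gene or within 1 kb of its ends, against 4 and 4 in LMPP, 4 and 4 in WT MDP, 4 and 4 in IRF8KO MDP, and 1 and 3 in LT-HSC.

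Further away, 2 regions inside Hmgxb3 were open in early progenitors and undetected in all 6 libraries of CD115+ cells. The one at 49.6 kb (chr18:61154663-61155715) was detected in the 4 LT-HSC and LMPP libraries, with peaks of 790, 1037, 627 and 799 bp, and the one at 51.2 kb (chr18:61156447-61157091) in both LMPP libraries alone. They were the 2 regions of Csf1r lost from LMPP to MDP. In Pdgfrb, the region at -28.3 kb was detected in WT MDP replicate 1 and in both IRF8KO MDP libraries, and the one at -30.8 kb in WT MDP replicate 2, CDP replicate 1 and both IRF8KO MDP libraries. No region of Csf1r was gained or lost between WT and IRF8KO MDP, among 12 detected in at least 1 of those 4 libraries.

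**Figure D2:**
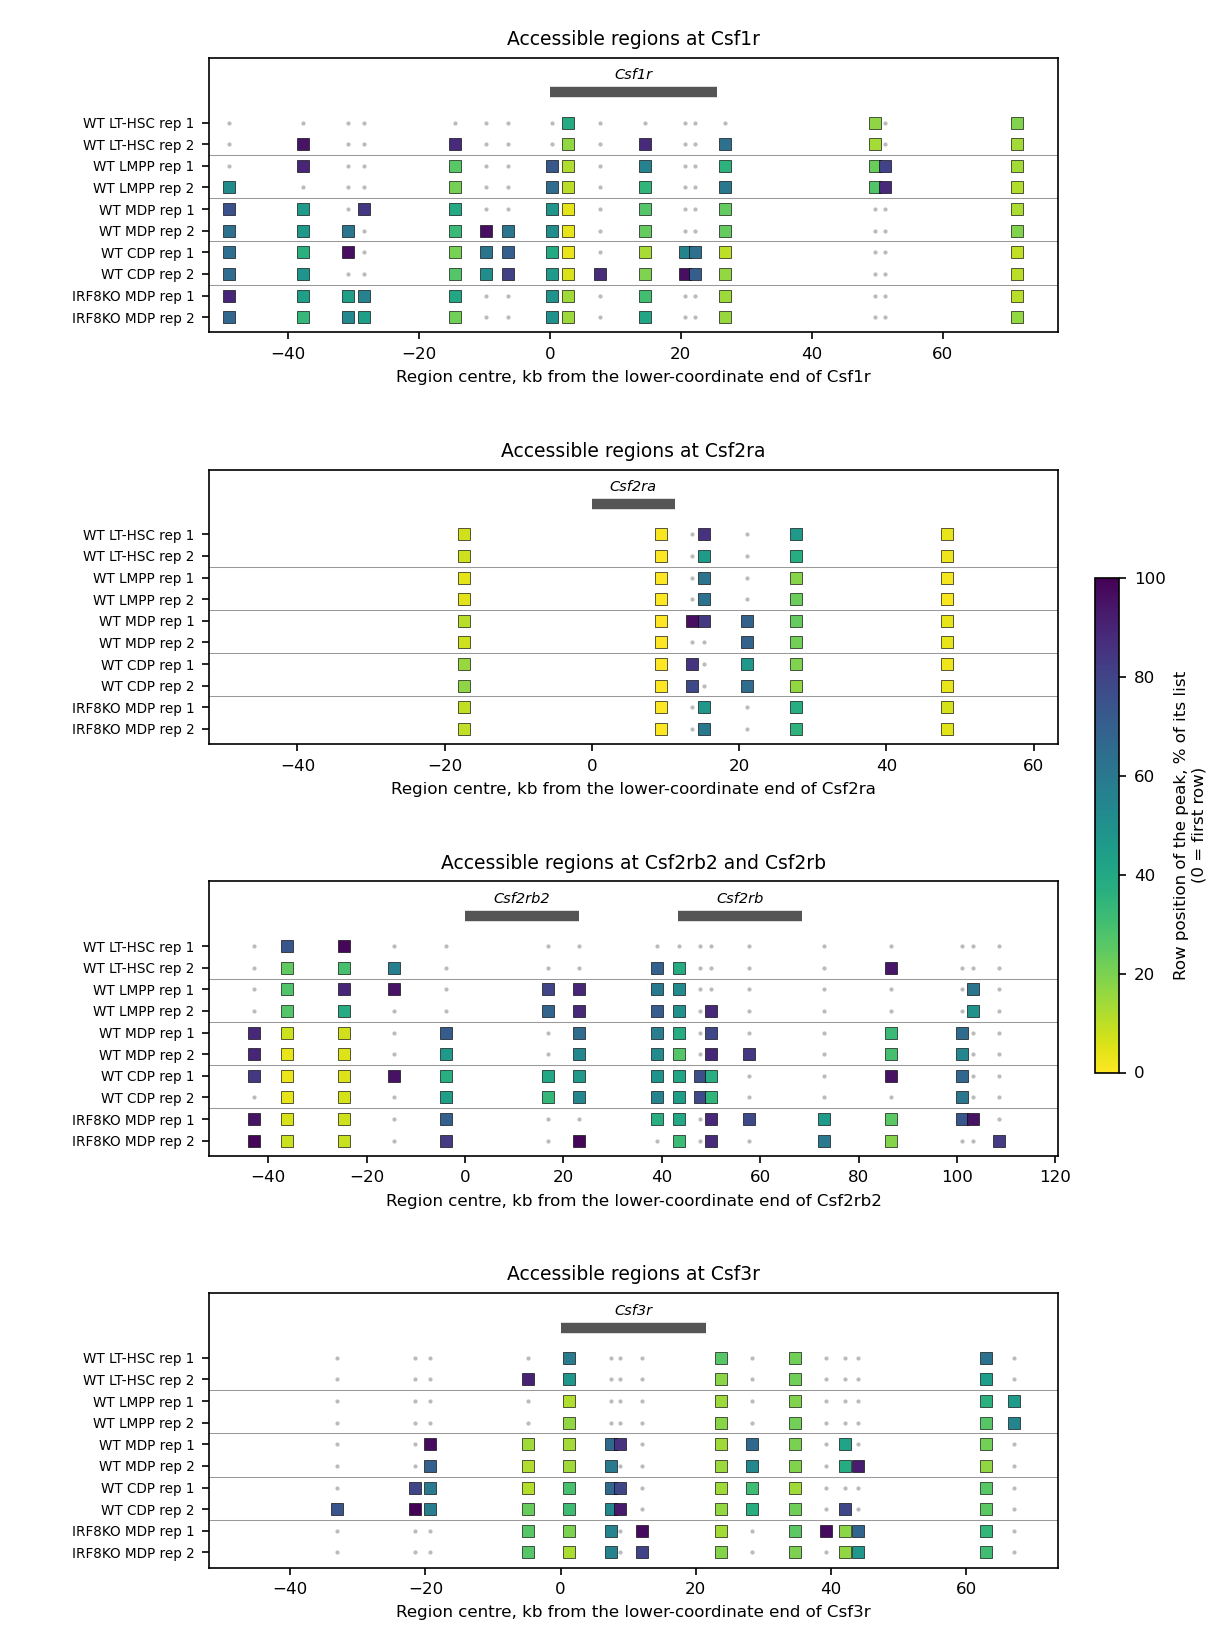
Detection of every region within 50 kb of the receptor genes, with 1 row per library and position in kb from the lower-coordinate end of the gene (of Csf2rb2 in the panel it shares with Csf2rb) on the horizontal axis. Squares are detected regions, coloured by the row position of the peak nearest the top of its list, as a percent of that list, small grey dots are regions not detected in that library, and bars above are gene spans. The 4 regions of Csf2ra with squares in all 10 rows contrast with the Csf3r regions at -19.3, -4.8, 7.5 and 28.3 kb, which have squares in every WT MDP and CDP row and in no LMPP row.

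Csf2ra (gene 12982, chr19:61217191-61228461), the alpha chain gene, was the most constant of the 5. Of its 7 regions, all nearest to Csf2ra itself, 4 were detected in all 10 libraries. LT-HSC replicates detected 5 and 5 regions, LMPP 5 and 5, WT MDP 7 and 5, IRF8KO MDP 5 and 5, and CDP 6 and 6. The groups overlapped in LT-HSC against LMPP and in the comparisons of LMPP with WT MDP, of WT MDP with CDP and of WT with IRF8KO MDP.

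The region over its promoter (9.4 kb, chr19:61223736-61229392) was the broadest of the 57, and its peak stood within the first 1.0% of the rows of each list. Peak widths were 3440 and 4311 bp in LT-HSC, 3831 and 3044 bp in LMPP, 3919 and 3469 bp in WT MDP, 5592 and 4667 bp in CDP, and 3274 and 4230 bp in IRF8KO MDP. Only the CDP peaks lay outside the range of the other groups. A second broad region at 48.2 kb (chr19:61263092-61267674) likewise had its widest peaks in CDP, with 4292 and 3458 bp in CDP against 2129 to 2978 bp in the other 8 libraries.

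Beyond the promoter, the alpha chain gene had a pair of regions with opposite patterns. The region at 21.1 kb (chr19:61237935-61238625) was detected in the 4 WT MDP and CDP libraries alone, and so counted as gained from LMPP to MDP and lost in IRF8KO MDP. The region at 15.2 kb (chr19:61232096-61232667) was detected in both libraries of LT-HSC, LMPP and IRF8KO MDP and in WT MDP replicate 1, and in neither CDP library. Its peak was 501 bp wide in all 7 libraries.

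Csf2rb (gene 12983, chr15:78325800-78351001) and Csf2rb2 (gene 12984, chr15:78282507-78305721) lie 20.1 kb apart, and each had 13 regions within 50 kb, of which 9 were shared. Of the 17 distinct regions, LT-HSC replicates detected 2 and 6, LMPP 8 and 8, WT MDP 10 and 11, IRF8KO MDP 12 and 10, and CDP 13 and 10. LT-HSC lay below LMPP and LMPP below WT MDP without overlap, and the 3 groups of CD115+ cells overlapped. Counted for single genes, 41.1% and 33.0% of protein-coding genes with a region also rose without overlap in these steps. The count of 2 came from LT-HSC replicate 1, the library with the shortest list. The sources used here do not say how the aligner placed reads that fit both genes, so detection inside these 2 genes is less certain than elsewhere.

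The common beta chain gene Csf2rb by itself had 0 and 3 regions in LT-HSC, 5 and 6 in LMPP, 7 and 8 in WT MDP, 9 and 8 in CDP, and 9 and 7 in IRF8KO MDP. The region over its lower-coordinate end (0.2 kb, chr15:78325516-78326442) was detected in every library except LT-HSC replicate 1, and so was found in 1 of 2 stem cell libraries. An intragenic region at 6.7 kb (chr15:78331369-78333544) was undetected in both LT-HSC libraries and LMPP replicate 1. Its peak was 501 bp wide in LMPP replicate 2, 639 and 501 bp in WT MDP, 1774 and 2007 bp in CDP, and 501 bp in both IRF8KO MDP libraries, so the CDP peaks were wider than any other without overlap. Next to it, a region at 4.4 kb (chr15:78329933-78330444) was detected in both CDP libraries alone.

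Csf2rb2 had 2 and 5 regions in LT-HSC, 7 and 7 in LMPP, 8 and 9 in WT MDP, 11 and 9 in CDP, and 9 and 8 in IRF8KO MDP. Inside the gene, the region at 16.8 kb (chr15:78298471-78300158) was detected in LMPP and CDP, in both replicates each, and nowhere else. Its peaks were 501 bp wide in both LMPP libraries and 1128 and 1682 bp in CDP. It was the 1 region of the 57 with this pattern, which 0.400% of all regions had, and it counted as gained from LT-HSC to LMPP, lost from LMPP to MDP and gained from MDP to CDP. On the upper-coordinate side of the gene, where its promoter lies, the region at 23.1 kb (chr15:78305186-78306092) had peaks of 501 bp in LMPP and WT MDP, 808 and 835 bp in CDP, none and 501 bp in IRF8KO MDP and none in LT-HSC.

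Past the lower-coordinate end of Csf2rb2, the region at -3.9 kb (chr15:78278283-78278926) was detected in all 6 libraries of CD115+ cells and in none of LT-HSC and LMPP. Farther out, 4 regions lay nearest to Ncf4, which encodes a subunit of the phagocyte NADPH oxidase. The 2 inside Ncf4, at -36.1 and -24.5 kb, were detected in all 10 libraries. At -36.1 kb (chr15:78243765-78249031), peaks were 1002 and 2195 bp wide in LT-HSC, 1389 and 1503 bp in LMPP, 2800 and 2974 bp in WT MDP, 4435 and 4254 bp in CDP, and 3039 and 3650 bp in IRF8KO MDP. The 6 libraries of CD115+ cells had wider peaks than the other 4, without overlap, and those of IRF8KO MDP were wider than those of WT MDP.

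No region of the beta chain genes was lost in IRF8KO MDP, and 1 was gained. The gained region at 29.7 kb from the lower-coordinate end of Csf2rb (chr15:78355082-78355969) had peaks of 888 and 501 bp in the IRF8KO MDP libraries and none in the other 8. On the same side, the region at 43.2 kb (chr15:78368417-78369656), nearest to Tex33, was detected in LT-HSC replicate 2, both WT MDP libraries, CDP replicate 1 and both IRF8KO MDP libraries, with the widest peaks, 751 and 1240 bp, in IRF8KO MDP.

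**Figure D3:**
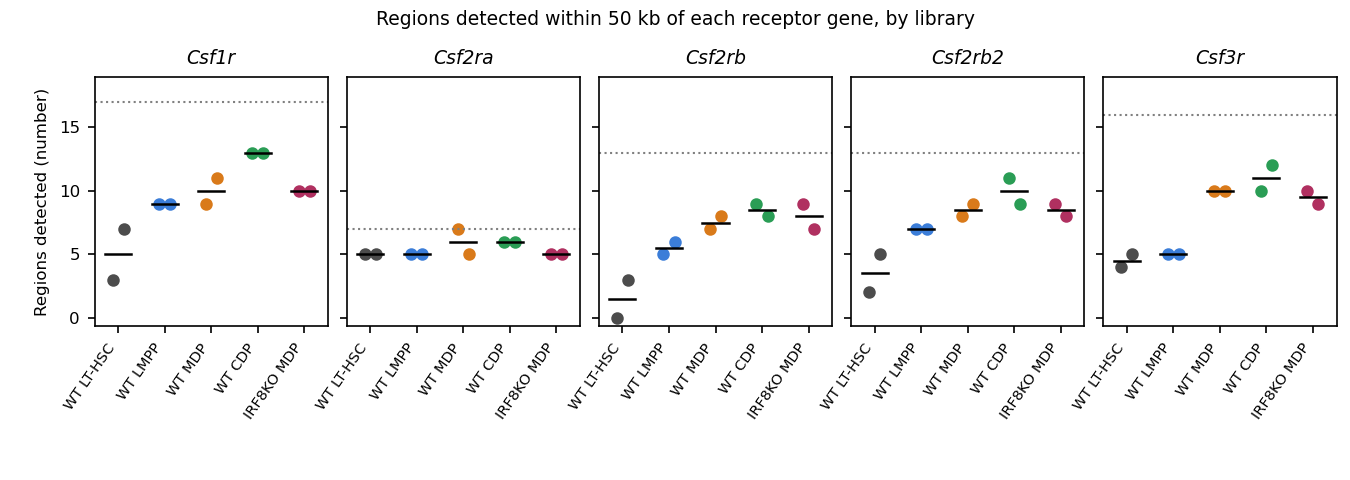
Number of regions detected within 50 kb of each receptor gene, with 1 point per library, a black line at the group mean and a dotted line at the number of regions the gene has in all. Csf3r has 4 or 5 regions in each LT-HSC and LMPP library and 9 to 12 in the others, whereas Csf2ra has 5 to 7 in all 10.

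Csf3r (gene 12986, chr4:126023441-126044975) had 16 regions, 8 of them nearest to it, 2 nearest to Mrps15, a gene of the mitochondrial ribosome, and 6 nearest to Oscp1. LT-HSC replicates detected 4 and 5 regions, LMPP 5 and 5, WT MDP 10 and 10, IRF8KO MDP 10 and 9, and CDP 10 and 12. The step from LMPP to WT MDP was thus the one without overlap, at a mean of 5.0 ± 0.00 against 10.0 ± 0.00 regions (SD, n = 2 each). Its neighbours in the order, LT-HSC with LMPP and the 3 groups of CD115+ cells with each other, overlapped. Its product was not a sort marker, but LMPP and MDP were sorted by different markers. Of its 12 regions detected in these libraries, 5 (41.7%) were gained from LMPP to MDP and 1 (8.33%) was lost. Of all regions tested, 12.9% were gained and 13.4% lost. Gains minus losses at Csf3r fell from 4 to 3 with regions nearest to a receptor gene alone, and to 2 with every list cut to the shortest. The 10 regions of the 2 WT MDP libraries were not all the same. Of these 2 libraries, replicate 1 alone detected the region at 8.8 kb and replicate 2 alone the one at 44.0 kb. Among protein-coding genes with a region, 33.0% also had more regions in both WT MDP libraries than in both LMPP libraries.

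The merged region that holds the promoter of Csf3r (1.2 kb, chr4:126023887-126025440) was detected in every library, LT-HSC included. Peak widths were 645 and 785 bp in LT-HSC, 1342 and 1386 bp in LMPP, 1357 and 1160 bp in WT MDP, 1029 and 912 bp in CDP, and 764 and 1025 bp in IRF8KO MDP. The widest peaks were in LMPP and WT MDP, and the deeper CDP libraries had narrower ones than both of those groups. The differences in detection at Csf3r lay in other regions.

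The region at -4.8 kb (chr4:126017579-126019787), before the gene on its plus strand, was detected in neither LMPP library. Its peaks were 1957 and 1851 bp wide in WT MDP, 2055 and 1544 bp in CDP, 630 and 626 bp in IRF8KO MDP, and 501 bp in LT-HSC replicate 2. The IRF8KO MDP peaks were narrower than those of WT MDP and CDP without overlap, although the region itself stayed detected in both. Inside the gene, the region at 7.5 kb (chr4:126030609-126031292) was detected in all 6 libraries of CD115+ cells and in no other.

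Of 5 regions gained from LMPP to MDP at Csf3r, 2 were undetected in IRF8KO MDP and the other 3 remained in both of its libraries. This split was not counted over all regions gained from LMPP to MDP, so it is no trait of Csf3r by itself. Of all regions found in both WT MDP libraries, 19.4% were found in neither IRF8KO MDP library. The 2 undetected there lay at -19.3 kb (chr4:126003712-126004484) and, inside Mrps15, at 28.3 kb (chr4:126051341-126052157), and both were detected in the 4 WT MDP and CDP libraries alone. The 3 that remained lay at -4.8, 7.5 and, inside Oscp1, at 42.0 kb. In contrast, a region at 12.1 kb inside Csf3r (chr4:126035157-126035961) was detected in both IRF8KO MDP libraries and in no other, with peaks of 501 and 673 bp. The region at 67.0 kb in Oscp1 was detected in both LMPP libraries alone, and was the 1 lost from LMPP to MDP. CDP had 1 region of its own, at -21.5 kb, detected in both replicates.

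Genes of the neutrophil lineage were also open in the libraries with more Csf3r regions. Of 5 neutrophil markers (Elane, Mpo, Ctsg, S100a8 and Ly6g), 1 and 2 were open in the LT-HSC libraries, 2 in each LMPP library and 4 in each of the 6 libraries of CD115+ cells. Their summed regions numbered 1 to 2 in LT-HSC, 2 in both LMPP libraries, 6 in both WT MDP libraries, 5 to 7 in CDP and 6 to 7 in IRF8KO MDP, with Ly6g at 0 throughout. The part that cells of the neutrophil lineage within the MDP gate may have in the Csf3r result was not tested.

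**Figure D4:**
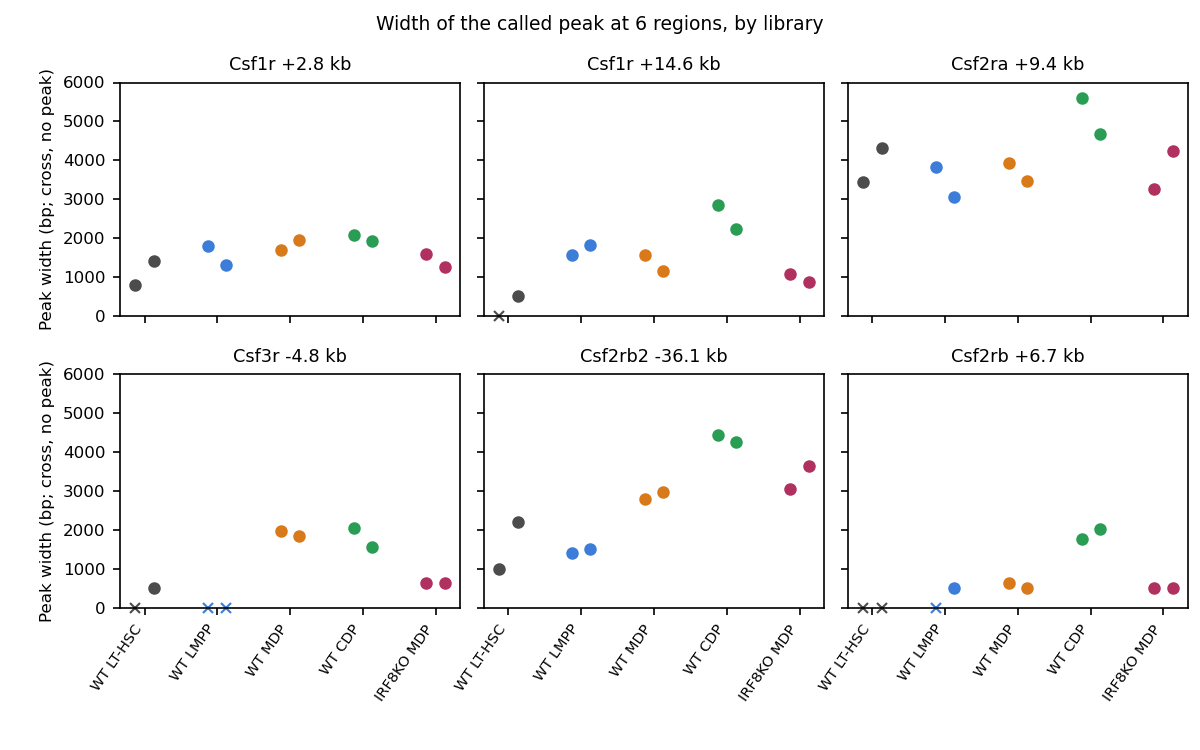
Width in bp of the called peak at 6 regions, with 1 point per library and a cross at 0 where the library had no peak, under titles that give the gene and the position in kb from its lower-coordinate end. Where a library had more than 1 peak in a region, their widths were summed. At Csf3r -4.8 kb the WT MDP and CDP peaks span 1544 to 2055 bp and the IRF8KO MDP peaks 626 to 630 bp, and at Csf2rb 6.7 kb the CDP peaks reach 1774 and 2007 bp.

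Most receptor regions of WT MDP were also detected in IRF8KO MDP. Of 32 receptor regions found in both WT MDP libraries, 26 (81.2%) were found in both IRF8KO MDP libraries, 3 in 1 of them and 3 in neither. Over all regions found in both WT MDP libraries, 70.5% were found in both IRF8KO MDP libraries and 19.4% in neither. All 3 receptor regions found in neither, at 21.1 kb of Csf2ra and at -19.3 and 28.3 kb of Csf3r, had the pattern of detection in the 4 WT MDP and CDP libraries alone, which 3.89% of all regions had. IRF8KO MDP libraries detected 64.9% and 59.6% of the 57 regions, next to 63.2% and 64.9% in WT MDP, whereas over all 114366 regions they detected 42.5% and 45.8%, next to 52.4% and 54.2%.

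The detection profile of each gene was also compared with those of 17215 protein-coding genes that had at least 4 regions within 50 kb and lay over 100 kb from the receptor genes, as the mean absolute difference, over the 10 libraries, in the percent of a gene's regions detected. The closest to Csf1r were Agap1 (2.40 percentage points), Git2 (2.76) and Bbs12 (2.94). For Csf2ra they were Naaladl1 (3.77), Angptl4 (4.29) and Cenpl (4.29), for Csf2rb Cbx8 (4.81), Rab11fip4 (5.17) and Sdk1 (5.26), and for Csf2rb2 Slc26a11 (3.22), Prss42 (3.33) and Atg3 (3.51). Those closest to Csf3r were Cdt1 (4.03), Dnajc13 (4.38) and Mthfd1 (4.42). Depth and list length are common to all genes of a library and enter every profile.

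Other genes of the pathway, 28 in all, were followed by the same rule. They comprised 6 ligand genes, Il3ra and Il5ra, kinases and adaptors, STAT genes and inhibitors. From LT-HSC to LMPP, 22 of 28 genes had more regions gained than lost and 0 the reverse (55.1% and 6.39% of all protein-coding genes). The adaptor gene Gab2 gained 6 of 20, the kinase gene Lyn 5 of 23, Il5ra 4 of 10 and the JAK inhibitor gene Socs1 4 of 13, while Cish, another inhibitor, lost 2 and gained 3 of 17. From LMPP to MDP, 15 had more gained than lost and 7 the reverse (43.0% and 27.4% of all genes). The ligand gene Csf1 gained 6 of 13, the adaptor gene Grb2 6 of 17 and Pik3cd, a subunit of PI3 kinase, 5 of 17. Socs1 lost 6 of 15, Gab2 4 of 21, Il5ra 3 of 14 and Csf2 2 of 8. Of these, Socs1, Gab2 and Csf2 also gained 1 each.

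From MDP to CDP, 16 of the 28 had more gained than lost and 3 the reverse (38.5% and 16.6% of all genes). Gab2 gained 4 of 22 and Shc1, Stat3 and Stat5a 3 each, of 17, 18 and 17, and Stat3 and Stat5a also lost 1 each. Pik3cd lost 3 and gained 2 of 19. Stat5b, which shares its surroundings with Stat3 and Stat5a, lost 2 and gained 3 of 23. Between WT and IRF8KO MDP, 4 had more gained than lost and 17 the reverse (10.9% and 47.1% of all genes). Lyn lost 5 and gained 2 of 26, and Fgr, a Src-family kinase gene, lost 4 and gained 1 of 13. Grb2 lost 3 of 20 and Il5ra 3 of 9, with none gained. Gab2 gained 3 and lost 2 of 20. Over the distinct regions of the list, 42 of 371 (11.3%) were lost in IRF8KO MDP against 13.3% of all regions, and 66 of 378 (17.5%) were gained from LMPP to MDP against 12.9%.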

How the data were processed

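The data are 10 ATAC-seq peak lists, 1 a library. The submitters' processing notes name Bowtie 1.1.2, HOMER 4.9 and the builds mm10 and GRCm38. Peaks were called by HOMER on single libraries without a control, per the file headers, with peaks of 500 bp at least 1000 bp apart, a false discovery rate of 0.001, 4-fold enrichment over the local 10000 bp and at most 1 tag per bp. Neighbouring peaks were stitched into regions of variable length, per the file headers. The sources used here do not say whether reads were shifted for the transposase. As deposited, the score was 1 in every row of the 10 lists and was not used. Row position within a list was similar between replicates (Spearman 0.883 to 0.946 across regions) and followed peak width (-0.865 to -0.813 across peaks), so it served to describe, not to compare lists.

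Peaks were merged, assigned to genes by RefSeq gene spans (GRCm38.p6) and counted with Python 3.11.15 and numpy 2.4.6. Merging and calling were tested on simulated lists. The table gives no exons, so exonic and intronic positions were not separated. Promoter start sites came from the RefSeq promoter table, and motifs were searched in the 250 bases before the start, not the 50 after it. Named were the 5 genes, neighbours that hold or lie nearest to a described region, the 3 genes closest in profile to each, and up to 4 pathway genes per comparison and direction. The result of 1 pathway gene that this rule names is not reported here. The members and lists were chosen with earlier results of these data known. Labels do not say that replicates are separate animals for every group, so the spread may be technical. Alternatives were equal list lengths, the first 75% of rows, merging at 250 bp, a 20 kb window, nearest gene only, and leaving out each library. Trimming the 4 lists of a comparison, and a replicate block, were added after seeing the data.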

Additional observations from a re-analysis of the deposited data

How the results depend on the processing

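Merging at 250 bp gave the same counts of gained and lost receptor regions in all 4 comparisons, and the other settings moved at least 1. With every list trimmed to the shortest (31325 rows), gained and lost regions were 1 and 1 of 20 from LT-HSC to LMPP (11.3% and 9.12% of all regions), 5 and 1 of 24 from LMPP to MDP (14.9% and 15.6%), 3 and 2 of 25 from MDP to CDP (8.25% and 7.34%), and 3 and 0 of 29 between WT and IRF8KO MDP (8.22% and 9.97%). With the 4 lists of a comparison trimmed to the shortest of them, they were 1 and 1 of 20 (11.3% and 9.12% of all regions), 10 and 5 of 47 (13.2% and 13.3%), 3 and 1 of 48 (7.52% and 6.27%), and 5 and 3 of 43 (7.41% and 9.62%). With the first 75% of rows, 2 of 38 were lost from MDP to CDP (5.58% of all regions) and 4 of 36 gained in IRF8KO MDP (4.35%). With a 20 kb window, 3 of 20 were gained from LT-HSC to LMPP (18.5% of all regions) and 1 of 30 lost from LMPP to MDP (13.4%). Counting regions nearest to a receptor gene alone, 3 of 15 were gained from LT-HSC to LMPP (18.5% of all regions). From LMPP to MDP, 5 of 24 were then gained and 1 lost (12.9% and 13.4%). These settings keep fewer peaks or regions by construction.

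Leaving out each library in turn, gained regions ranged from 6 to 11 and lost from 0 to 2 of 29 to 31 from LT-HSC to LMPP (19.1% to 37.2% and 3.07% to 9.92% of all regions). From LMPP to MDP they were 11 to 15 and 5 to 6 of 42 to 47 (16.0% to 19.3% and 16.3% to 20.2%). From MDP to CDP they were 6 to 7 and 1 to 2 of 47 to 48 (12.4% to 15.5% and 6.55% to 9.91%). In IRF8KO MDP they were 3 to 4 and 4 to 5 of 44 to 45 (5.76% to 8.88% and 16.3% to 21.2%). At Csf3r, the net from LMPP to MDP fell from 4 to 2 with every list trimmed to the shortest. It was 3 with the first 75% of rows or with regions nearest to a receptor gene alone, and 4 or 5 in the other settings. The net at Csf1r from LMPP to MDP turned from -2 to 1 without WT MDP replicate 1. The net at Csf3r turned from 1 to -1 from MDP to CDP with the first 75% of rows, and from -1 to 1 in IRF8KO MDP with trimmed lists of either kind. The cause was not tested. Replicate numbers are shared across groups, but the labels tie no animals to them, and the differences between replicates 1 and 2 did not go together between groups (r of -0.02 to 0.01 across regions). With the replicate number as a block, the differences in regions per library were the same by construction (5.0 at Csf3r from LMPP to MDP, for example), and the smallest exact paired p, 0.5, was also the smallest that 2 pairs allow. The counts of gained and lost regions come from no test. Regions near the detection limit of a library can appear or vanish with its depth.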
